A study of Mus musculus with 1152 samples.

Results

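The genes described are the potassium channel genes of the mouse, taken as every gene whose symbol is Kcn followed by a family letter or letters and a number, except Kcnj8, which the choice left out. There were 92 such genes among the 46517 in the count table, and the 49 that reached 10 CPM (counts per 1000000 reads) in at least 1 of 5 cell classes are described below. The symbols cover 66 pore-forming subunits, 16 auxiliary subunits and 10 further modifier subunits. Of these, 37, 10 and 2 reached 10 CPM. The choice used symbols and no measured difference, but the minimum of 10 CPM makes the 49 genes a set that is high somewhere.

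RNA was measured with SMART-seq2, which sequences amplified full-length cDNA from the cell in each well of a plate. The cells came from the brain of adult C57BL/6 mice of both sexes and of a pair of lines. Pdgfra-H2BGFP mice carry a nuclear green protein driven by Pdgfra, a gene used by oligodendrocyte precursors and fibroblasts. Tagl-CREERT2;Ai14 mice, spelled as in the labels, carry an inducible recombinase and a red reporter. Tissue was digested, vascular fragments were pulled out with beads against CD31, an endothelial surface protein, and fluorescent cells were then sorted. The labels tie no well to a line, an animal or a sex and give no inducing agent. The sort and the bead step set which cells could be seen, so numbers of wells say nothing of the brain's composition. The labels name no control genotype or treatment.

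Potassium channels let potassium ions leave or enter a cell along their gradient and so set the resting potential and shape its changes. Inward rectifiers (Kir, the Kcnj genes) and the 2-pore-domain leak channels (K2P, Kcnk) are open near rest, whereas the Kv families open on depolarisation, and auxiliary subunits such as the KChIP proteins (Kcnip) and the KCNE proteins (Kcne) alter where and how they open. In the oligodendrocyte lineage, precursors are known for A-type and delayed-rectifier currents, and mature oligodendrocytes for inward rectifiers that take part in clearing potassium around axons. In vessels, potassium channels of smooth muscle and endothelium take part in the control of tone.

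Wells were put in classes by standard markers, and each class name below means cells like that type. Of 1152 wells in 3 sets of 384, 699 had at least 50000 reads and under 5% of reads from mitochondrial genes. A marker list counted as on in a well where at least 3 of its 5 genes reached 100 CPM. This gave 208 oligodendrocyte precursor wells (OPC, median depth 265753 reads), 76 committed precursor wells (COP, 472846 reads), 197 oligodendrocyte wells (OL, 369530 reads), 64 fibroblast wells (291266 reads) and 35 vessel wells (387896 reads). The remaining 119 kept wells entered no class, 99 of them because lists of several lineages were on. All 35 vessel wells had the endothelial list on, and 12 of them also had a mural list on. None had a mural list alone, so the vessel class describes endothelial wells with or without mural RNA. All libraries were treated as 1 sample because the labels separate no animals. There are therefore no replicates, no test and no p-value, and each comparison lacks a replicate check. A level is the CPM of the summed reads of a class with a 95% exact Poisson interval, and shares carry exact Clopper-Pearson intervals. The reads carry no molecular identifiers, so the Poisson intervals cover the counting of reads only and not of molecules. The Clopper-Pearson intervals take each well as an independent draw. Neither kind covers differences between animals.

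The gates used these same markers, so the level of a list in its own class was fixed by the choice and is no check of the name. The level of each list outside its class shows what else the wells held. The 5 OPC markers summed to 465 CPM in fibroblast, 398 in COP, 118 in OL and 54.1 in vessel wells, against 4199 in OPC. The OL markers summed to 818 CPM in vessel, 738 in COP, 403 in OPC and 285 in fibroblast wells, against 9799 in OL. The COP markers summed to 192 to 496 CPM and the fibroblast markers to 26.1 to 255 CPM outside their classes, against 5612 and 9794 CPM within. RNA of other types was also present. The astrocyte list summed to 1048 CPM in OPC (wells from 16.4 to 3886), with 3 of its 5 genes over 10 CPM, and to 224 to 330 CPM in the other classes. The neuron list summed to 408 CPM in OPC, 135 in COP, 361 in OL, 40.5 in fibroblast and 263 in vessel wells. The microglia list stood at 2714 CPM in vessel wells, where it was on in 16 of 35, against 64.0 to 195 CPM elsewhere. These values move with several of the differences below, and their part in those differences was not tested.

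More potassium channel genes were counted in precursors than in the other classes. In OPC 37 of the 92 genes reached 10 CPM (40.2%; 23.5% of all genes), in COP 16 (17.4%; 20.7%), in OL 10 (10.9%; 19.7%), in fibroblast 11 (12.0%; 21.8%) and in vessel wells 10 (10.9%; 21.5%). Of the 49 reported genes, 28 had their highest level in OPC, 4 in COP, 5 in OL, 6 in fibroblast and 6 in vessel wells. Over all genes of the table, 13757 of 46517 (29.6%) reached 10 CPM in some class, against 53.3% of the potassium channel genes. In wells thinned to 50000 reads each, the median number of potassium channel genes with a read was 10 in OPC, 7 in COP, 6 in OL, 2 in fibroblast and 3 in vessel wells. Just inside the 10 CPM minimum were Kcnn2 (12.1 CPM), Kcnh5 (11.9) and Kcnf1 (11.5), and just outside it Kcng4 (9.47), Kcnt2 (9.47) and Kcnj9 (9.37). Without the highest OPC well of each gene, Kcnn2, Kcnh5, Kcnf1, Kcna3, Kcnj3, Kcnc4, Kcnip2 and Kcnd1 fell under 10 CPM in OPC. There was no read in any class for 4 of the 92 genes.

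**Figure D1:**
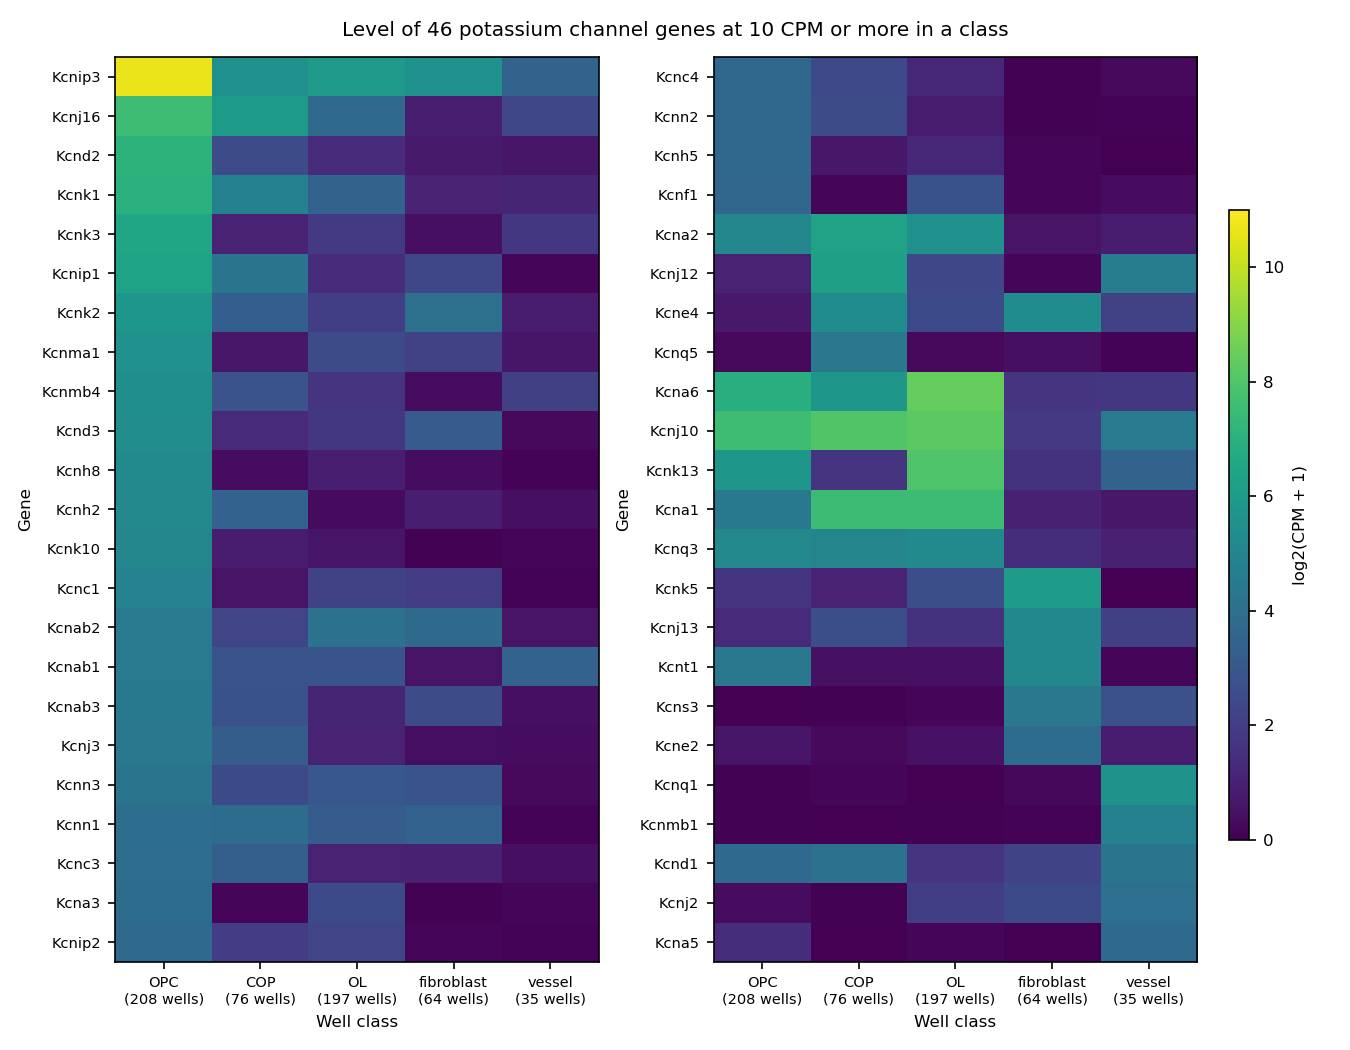
Level of 46 potassium channel genes at 10 CPM or more in at least 1 class, one row per gene and one column per class of wells, coloured by log2(CPM + 1) of the summed reads. The rows are ordered by the class with the highest level; the OPC column is the most filled, and Kcnip3 in OPC is the brightest cell at 1615 CPM.

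The regions before the starts of 4 genes that are highest in different classes are printed to show what lies upstream of them. RefSeq entries (GRCm38.p6) gave 250 bases before a start for 67 of the 92 genes, some of which have several starts. The 4 belong to Kcnip3 (highest in OPC), Kcnj12 (COP), Kcnk13 and Kcnj10 (both OL). They were searched on both strands for ACAAAG, the core letters that SOX factors bind, and CAGCTG, an E-box bound by helix-loop-helix factors. Both kinds of factor are known in the oligodendrocyte lineage. Capitals mark a match, all sequences run 5′ to 3′ on the strand of the gene, and the start follows the last base.
Kcnip3, chr2:127522095-127522344, minus strand: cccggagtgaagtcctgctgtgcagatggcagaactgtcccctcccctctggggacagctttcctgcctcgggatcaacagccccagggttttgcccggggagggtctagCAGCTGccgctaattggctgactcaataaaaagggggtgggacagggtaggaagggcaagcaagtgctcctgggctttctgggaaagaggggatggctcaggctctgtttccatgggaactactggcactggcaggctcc
Kcnj12, chr11:61065554-61065803, plus strand: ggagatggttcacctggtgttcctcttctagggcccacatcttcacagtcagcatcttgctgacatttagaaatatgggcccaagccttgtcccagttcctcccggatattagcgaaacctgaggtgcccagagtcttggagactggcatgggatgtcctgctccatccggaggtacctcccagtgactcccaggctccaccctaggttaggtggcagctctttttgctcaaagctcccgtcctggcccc
Kcnk13, chr12:99964249-99964498, plus strand: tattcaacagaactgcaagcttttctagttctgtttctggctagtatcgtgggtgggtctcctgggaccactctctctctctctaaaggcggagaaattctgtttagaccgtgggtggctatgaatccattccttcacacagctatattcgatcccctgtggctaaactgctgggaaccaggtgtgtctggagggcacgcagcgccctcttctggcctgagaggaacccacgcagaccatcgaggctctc
Kcnj10, chr1:172340960-172341209, plus strand: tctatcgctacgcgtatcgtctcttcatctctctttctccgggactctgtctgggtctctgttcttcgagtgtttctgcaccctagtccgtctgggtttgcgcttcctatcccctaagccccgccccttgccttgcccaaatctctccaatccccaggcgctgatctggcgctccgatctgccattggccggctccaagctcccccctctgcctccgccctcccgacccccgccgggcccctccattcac
The Kcnip3 window held 1 E-box, its first base at -140 from the start, and the other 3 windows held neither motif. The window shown for Kcnip3 is the outermost of its 3 starts, and the window of another of them (chr2:127482500-127482749) held ACAAAG on the opposite strand, its first base at -112. The Kcnj12 start lies inside the GENCODE gene, whose first exon begins further upstream. Over all starts of the potassium channel genes, 10 of 92 (10.9%) held ACAAAG and 22 of 92 (23.9%) held CAGCTG, against 16.5% and 13.0% of the 32851 mouse promoter windows of this length. These 92 starts belong to 67 genes, and overlapping windows of 1 gene, such as those of Kcnc2, can count 1 match more than once. A match is a run of letters and not a bound site.

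Among the inward rectifiers, Kcnj10 was present in most wells at all 3 stages of the oligodendrocyte lineage. Kcnj10 (chr1:172341210-172374085, GRCm38, as all positions of genes here) encodes Kir4.1, the channel known for potassium uptake by glia. Its level was 191 CPM in OPC, 261 in COP and 301 in OL, against 2.59 in fibroblast wells. OPC wells ran from 0 to 1971 CPM (median 101), COP wells from 0 to 1162 (median 190.0) and OL wells from 0 to 1858 (median 236). After thinning, a Kcnj10 read was present in 83.2% of OPC, 92.1% of COP and 90.4% of OL wells, but in 9.38% of fibroblast wells. The wells of the 3 stages overlapped almost fully, and the log2 ratio of OL to OPC was 0.66 (0.62 to 0.81 within the sets), under the 2-fold mark. With TMM scaling, which moves the median log2 ratio of all genes by 0.42 between OL and OPC, it reached 1.05. In vessel wells Kcnj10 stood at 21.4 CPM, or 9.48 without the highest well.

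Kcnj16, whose product Kir5.1 joins Kir4.1 in heteromeric channels, had the opposite order. It stood at 192 CPM in OPC, 62.3 in COP and 12.9 in OL. OPC wells had a median of 22.6 CPM and a highest value of 2390, COP wells a median of 6.03 and a highest value of 605, and the median OL well had no read. Thinned wells held Kcnj16 in 60.1% of OPC, 46.1% of COP and 10.2% of OL. Both genes of the pair were present in 103 of 208 OPC wells (49.5%, interval 42.5 to 56.5), 30 of 76 COP wells (39.5%, 28.4 to 51.4) and 19 of 197 OL wells (9.64%, 5.91 to 14.7). The shares of wells with both genes had the same order as those of Kcnj16 alone, while Kcnj10 itself was present in most wells of each stage. Whether the pair was more common than the single shares give was not tested.

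Kcnj12, encoding the strong inward rectifier Kir2.2, was a gene of the COP wells. Its level was 76.3 CPM in COP against 1.09 in OPC and 4.07 in OL. The COP wells ran from 0 to 857 CPM with a median of 0.63, and 27.6% held a read after thinning. So a minority of COP wells carried the RNA, and no OPC well exceeded 18.5 CPM. The COP to OPC log2 ratio was 5.21 (4.97 to 5.43), with 5.09 in set 600s_182s and 4.79 in set 613s. Kcnj3, a subunit of G-protein-gated channels, stood at 20.1 CPM in OPC, with 51.7% of its reads from 1 well. Gm26794 on the opposite strand overlaps 31.1% of the exonic bases of Kcnj3.

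Of the 4 Kv1 genes compared within the lineage, Kcna1 and Kcna6 were higher in OL than in OPC by 2-fold or more, Kcna3 was lower and Kcna2 was neither. Kcna6 (chr6:126708329-126740674), encoding Kv1.6, stood at 118 CPM in OPC, 55.5 in COP and 342 in OL. Its OL wells had a median of 221 CPM, with quartiles of 36.7 and 434, whereas the OPC median was 11.6 and the COP median 5.94. Thinned wells with a read made up 51.4% of OPC, 44.7% of COP and 83.2% of OL, and 6.25% of fibroblast wells. The OL to OPC log2 ratio was 1.52 (1.48 to 1.57) and was positive in all 3 sets, up to 1.82 in set 1025s_182s. A noncoding gene on the opposite strand, Gm26673, covers 39.6% of the exonic bases of Kcna6. The strand setting of the counting is not given in the sources used here, so their reads cannot be told apart.

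Kcna1 (chr6:126640397-126646384), encoding Kv1.1, reached 186 CPM in both COP and OL against 20.7 in OPC. The median well was at 5.01 CPM in OPC, 45.4 in COP and 71.5 in OL, and the highest OL well at 3249. Its OL to OPC log2 ratio was 3.11 and positive in each set (7.11, 3.56 and 1.96). For COP the sets disagreed. Within set 600s_182s COP wells stood at 213 CPM and OPC wells at 20.1, and within set 613s COP stood at 2.14 and OPC at 34.4. The log2 ratios were 3.35 and -3.49, and set 613s held 6 COP wells against 67 in set 600s_182s. Kcna2, the gene of Kv1.2, split in the same way, with 79.7 CPM in COP, 32.6 in OPC and 44.3 in OL and log2 ratios of COP to OPC of 1.53 in set 600s_182s and -4.14 in set 613s. Kcna1 and Kcna6 were found together in 110 of 197 thinned OL wells (55.8%, interval 48.6 to 62.9), 23 of 76 COP wells (30.3%, 20.2 to 41.9) and 35 of 208 OPC wells (16.8%, 12.0 to 22.6). Kcna1 with Kcna2 was found in 54 OL, 28 COP and 18 OPC wells. Counted singly, Kcna1 was present in 65.0% of OL, 60.5% of COP and 26.0% of OPC wells, and Kcna2 in 34.0%, 53.9% and 26.0%. The single shares of Kcna6 are given above. Whether these pairs were more common than the single shares give was not tested.

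**Figure D2:**
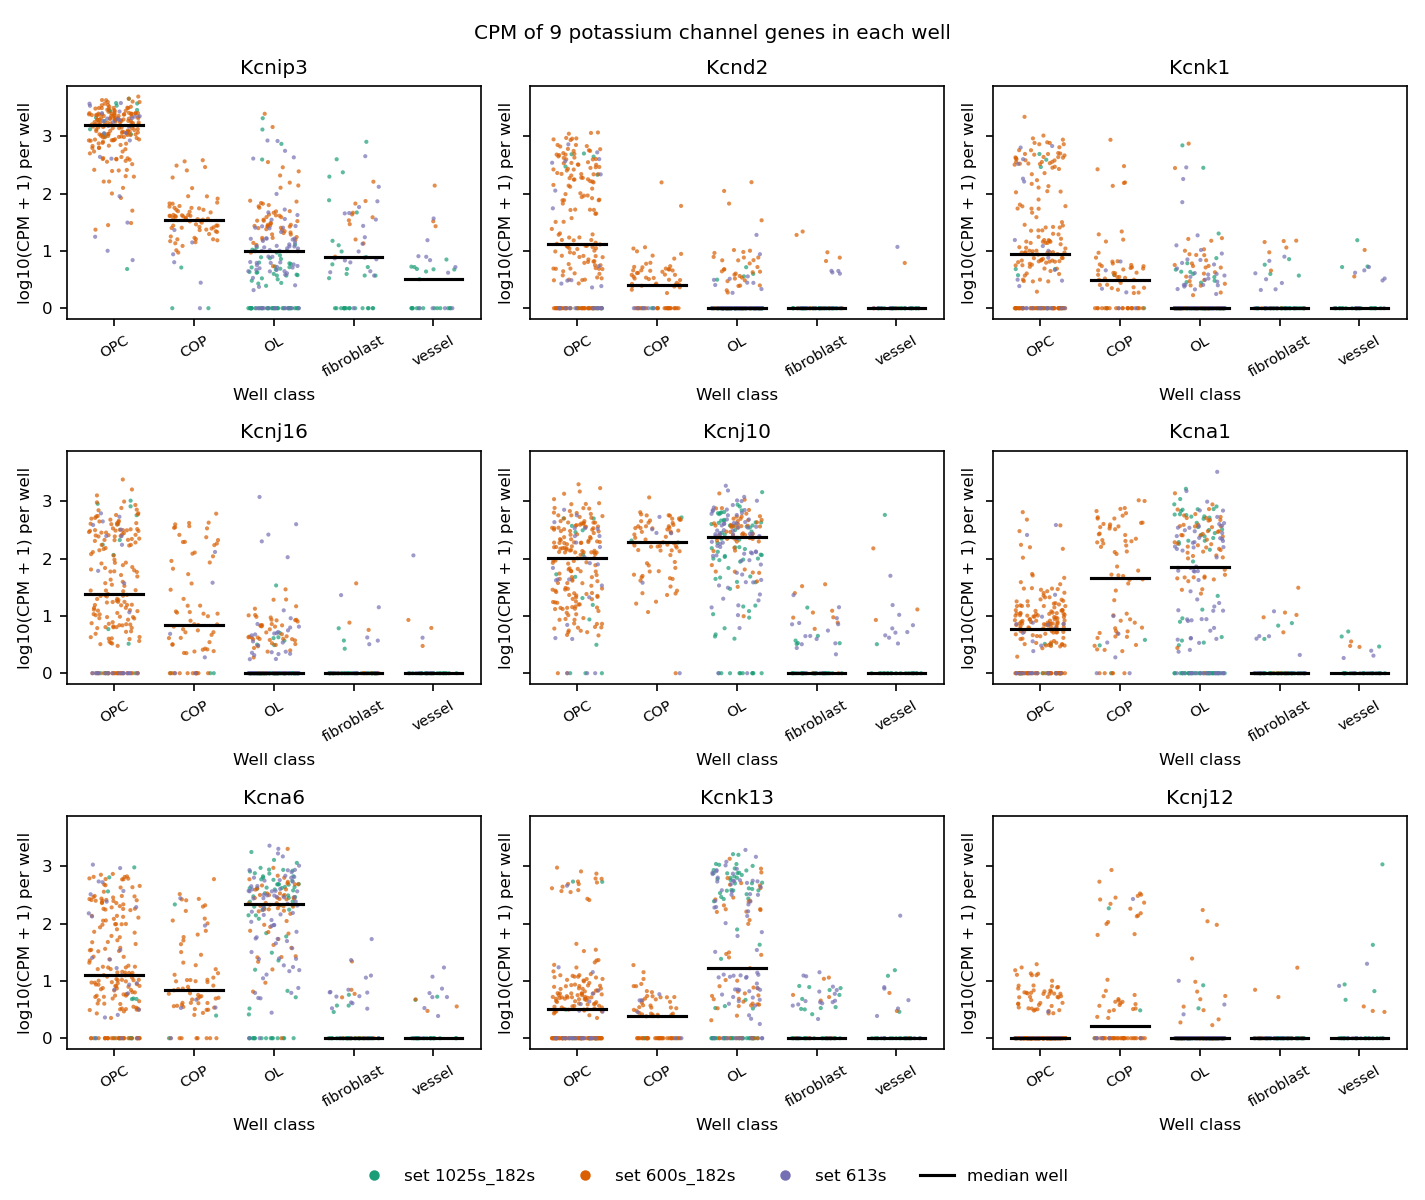
Level of 9 potassium channel genes in each well, as log10(CPM + 1), one panel per gene, with wells grouped by class; each point is a well coloured by set and each black bar is the median well. Kcnip3 fills the OPC wells (median 1554 CPM), Kcnj10 fills all 3 lineage stages, and Kcnk13 in OL and Kcnd2 in OPC spread over wells with many reads and wells with none.

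Of the K2P leak channel genes, OPC held several and OL mainly Kcnk13. Kcnk13, encoding THIK-1, stood at 54.8 CPM in OPC, 2.22 in COP and 252 in OL. OL wells ran from 0 to 1921 CPM with quartiles of 1.06 and 415 and a median of 15.7, and 108 of 197 reached 10 CPM, against 38 of 208 OPC and 2 of 76 COP wells. The OL class thus held wells with high Kcnk13 beside wells with almost none, and it was higher than OPC in all 3 sets (log2 ratios 1.89, 1.41 and 2.95). After thinning a read was seen in 54.8% of OL, 24.0% of OPC and 10.5% of COP wells. THIK-1 is also well known in microglia, and the microglia list summed to 64.0 CPM in OL, 86.7 in OPC and 79.2 in COP.

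Kcnk1 (TWIK-1) and Kcnk3 (TASK-1) were genes of the precursor. Kcnk1 stood at 128 CPM in OPC, 27.4 in COP and 10.3 in OL. The median OPC well was at 7.76 CPM, the upper quartile at 113 and the highest at 2176. Kcnk3 stood at 91.4 CPM in OPC, 1.12 in COP and 2.61 in OL, and its OPC wells had a median of 3.69 and a highest value of 1315. The COP to OPC log2 ratio of Kcnk3 was -5.44 (-5.70 to -5.17), with -5.20 in set 600s_182s and -7.32 in set 613s. Only 1 of 76 COP wells reached 10 CPM of Kcnk3 against 75 of 208 OPC wells. Kcnk2 (TREK-1) and Kcnk10 (TREK-2), mechanically and lipid sensitive leak channels, stood at 54.6 and 33.0 CPM in OPC and at 8.77 and 0.77 CPM in COP. All 5 K2P genes that could be compared were lower in COP than in OPC (24.2% of all genes were). In OL 4 of 5 were lower (31.1% of all genes), Kcnk13 being the one that was higher. In the COP comparison all but Kcnk1 passed the minimum of 10 CPM through OPC alone, so their COP level had to be below it. The same held in OL for Kcnk2, Kcnk3 and Kcnk10.

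Kcnip3 in OPC had the highest level per kilobase of exon of the 49 genes in any class, 455 CPM per kb. It encodes KChIP3, also called calsenilin or DREAM, a calcium-binding protein known both as a Kv4 subunit and as a DNA-binding repressor. Its level in OPC was 1615 CPM (1605 to 1624), against 45.3 in COP, 59.4 in OL, 46.2 in fibroblast and 10.2 in vessel wells. OPC wells ran from 3.83 to 4908 CPM with a median of 1554 and quartiles of 853 and 2339, and 205 of 208 reached 10 CPM. The upper quartile of COP wells was 50.9 CPM and that of OL wells 26.1, though the highest OL well reached 2461. Within the sets the OPC level was 2262, 1566 and 1523 CPM. The log2 ratio to OPC was -5.12 for COP (-4.91 and -7.32 within sets) and -4.74 for OL. A read remained in 98.6% of thinned OPC wells, 77.6% of COP, 43.1% of OL, 40.6% of fibroblast and 20.0% of vessel wells, so low levels were counted in every class.

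Of the Kv4 genes, whose channels carry A-type current, Kcnd2 and Kcnd3 were lower in COP and OL than in OPC, as were the other KChIP genes reported. Kcnd2 (Kv4.2) stood at 139 CPM in OPC, 4.70 in COP and 1.62 in OL. OPC wells had a median of 12.1 CPM, an upper quartile of 218 and a highest value of 1161, and 112 of 208 reached 10 CPM, against 3 of 76 COP and 5 of 197 OL wells. Kcnd3 (Kv4.3) stood at 42.6, 1.55 and 2.41 CPM in the same classes, and Kcnip1 (KChIP1) at 82.6, 17.9 and 1.64 CPM. With all wells counted, Kcnd1 (Kv4.1) was lower only in OL, with 12.7 CPM in OPC, 16.7 in COP (5.12 without the highest well) and 2.14 in OL. Without the highest well of each class its COP to OPC log2 ratio was -0.82, so its COP level rested on 1 well. All 111 thinned OPC wells with Kcnd2 also held Kcnip3, which was present in 205 of the 208. Kcnd2 and Kcnip1 were found together in 35 OPC wells (16.8%, interval 12.0 to 22.6) and in none of 76 COP wells (0 to 4.74%) or 197 OL wells (0 to 1.86%). Counted singly, Kcnd2 was present in 53.4% of OPC, 10.5% of COP and 4.06% of OL wells, and Kcnip1 in 30.3%, 14.5% and 3.05%. Whether the pair departed from what these shares give was not tested.

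Among the remaining voltage-gated genes, Kcnh8, Kcnh2 and Kcnh5 of the EAG family stood at 37.0, 34.7 and 11.9 CPM in OPC. Kcnh8, which encodes an ELK channel, stood at 0.27 CPM in COP and 0.89 in OL, and none of 76 thinned COP wells held a read (0 to 4.74%) against 22.1% of OPC wells. Kcnh2, the ERG channel of the cardiac repolarising current, stood at 10.1 CPM in COP and 0.26 in OL. Kcnma1, the BK channel pore, and Kcnmb4, its beta4 subunit, stood at 46.0 and 44.2 CPM in OPC. They were found together in 16 of 208 wells (7.69%, interval 4.46 to 12.2) and singly in 22.6% and 28.8%. Pairing beyond these shares was not tested. Kcnmb4os1 and Kcnmb4os2 on the opposite strand overlap 31.5% of the exonic bases of Kcnmb4, and as for Kcna6 the reads cannot be told apart. The Kv beta genes Kcnab1, Kcnab2 and Kcnab3 stood at 21.7, 22.4 and 21.1 CPM in OPC and at 6.25, 3.95 and 5.80 in COP. All 3 passed the minimum through OPC alone and had to be lower in COP, where 24.2% of all genes were lower. In OL Kcnab2 was not called (log2 ratio -0.46). The OL to OPC log2 ratios in sets 1025s_182s, 600s_182s and 613s were 2.45, -2.40 and -4.60 for Kcnab1, and 0, -3.01 and 0.70 for Kcnab3.

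Of the Kv7 genes, Kcnq3 was nearly flat across the lineage, at 35.7 CPM in OPC, 31.4 in COP and 37.6 in OL. Kcnq5 was found at 19.3 CPM in COP and at 0.21 and 0.22 CPM in OPC and OL. It reached 10 CPM in 13 of 76 COP wells and in 1 of 208 OPC wells. The COP to OPC log2 ratio was 4.07, with 4.08 and 4.50 within the sets. Kcne4, a KCNE subunit known to inhibit Kv7.1 and Kv1 channels, was also high in COP, at 39.2 CPM over the class. Of the 76 COP wells, 10 reached 10 CPM of Kcne4. Its level was 0.69 CPM in OPC and 4.58 in OL (0.37 without the highest OL well).

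In counts, 41 potassium channel genes reached 10 CPM in COP or OPC. A gene counted as higher or lower where log2((CPM + 1)/(CPM + 1)) was at least 1 in size. In COP 5 were higher (12.2%; 10.9% of all 11460 genes compared) and 30 lower (73.2%; 24.2% of all genes). Their median log2 ratio was -1.77, that of all genes -0.15. The 5 higher genes were Kcnj12, Kcne4, Kcnq5, Kcna1 and Kcna2. For OL against OPC 37 genes were compared, and 3 were higher (8.11%; 11.3% of all 11445 genes) and 28 lower (75.7%; 31.1% of all). Their median was -2.86 and that of all genes -0.39. The 3 higher genes were Kcna1, Kcnk13 and Kcna6. Largest among the lower genes were Kcnk3, Kcnip3 and Kcnh8 in COP and Kcnd2 (-5.74), Kcnip1 (-4.98) and Kcnh2 (-4.82) in OL. Most compared genes passed the minimum through OPC alone and had to be lower elsewhere, so the counts describe the classes and support nothing further. Some of these genes, such as Kcna3, Kcnh5 and Kcnn2, passed it only with their highest OPC well. Of the called genes, 31 of 35 for COP and 22 of 31 for OL had 1 sign in every set with a value. TMM scaling moved the median of all genes by 0.14 in the COP comparison and gave 5 higher and 29 lower there, and 4 higher and 27 lower in the OL comparison.

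**Figure D3:**
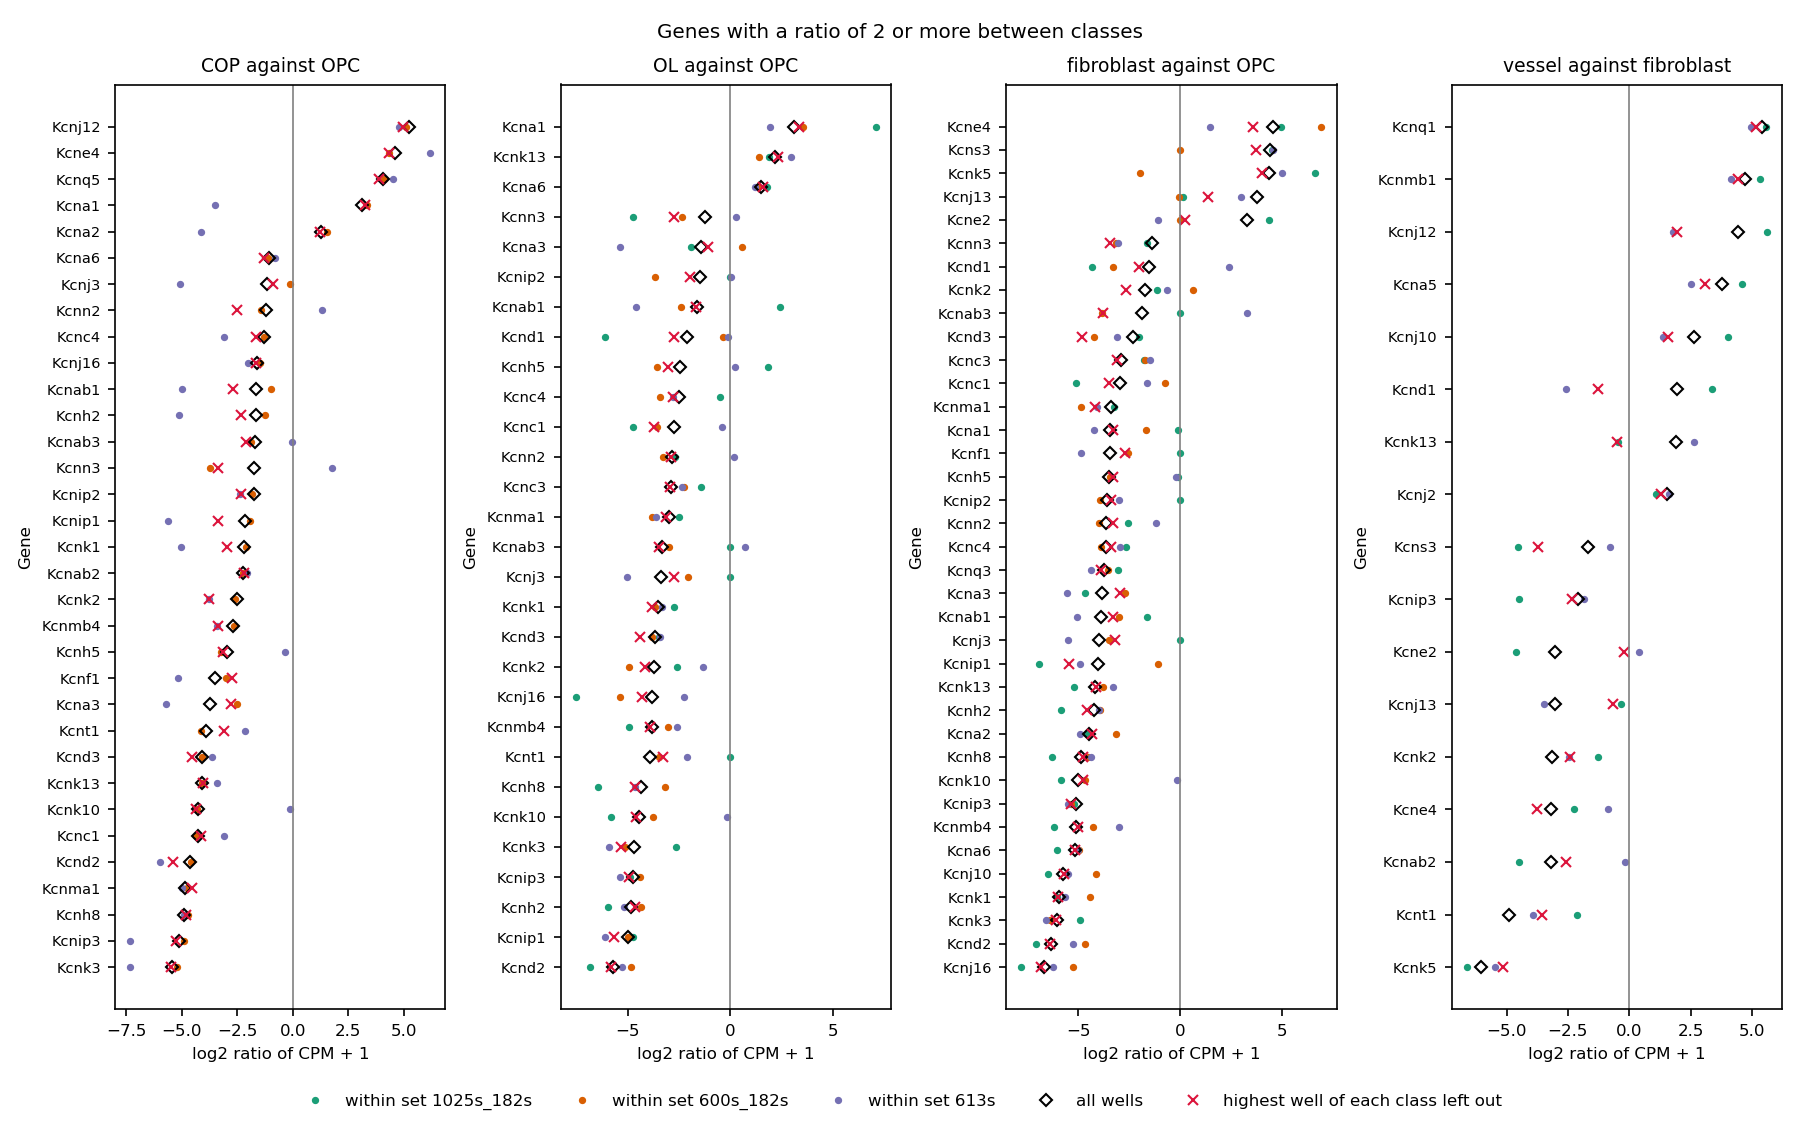
Log2 ratio of class levels, with 1 CPM added to each side, for genes called higher or lower in the 4 comparisons, one row per gene; diamonds are all wells, dots the values within each set and crosses the values with the highest well of each class left out. Lower genes make up 28, 26 and 32 rows of the first 3 panels and 9 rows in vessel against fibroblast wells, where the cross lies far from the diamond for genes such as Kcnd1.

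The summed level of all 92 genes was 414 CPM in fibroblast wells (378, 1004 and 328 in sets 1025s_182s, 600s_182s and 613s, the second with 11 wells), against 3410 in OPC, 1073 in COP, 1380 in OL and 293 in vessel wells. Without Kcnip3 the OPC sum was 1796 CPM. Of 43 genes compared between fibroblast and OPC, 6 were higher (14.0%; 21.2% of all 12518 genes) and 34 lower (79.1%; 29.5% of all), with a median log2 ratio of -3.59 against -0.21 for all genes. The higher genes included Kcnk5, Kcne4, Kcns3, Kcne2 and Kcnj13. Kcnj16 (-6.68), Kcnd2 (-6.33) and Kcnk3 (-6.08) had the lowest ratios. As above, most of the genes compared passed the minimum through OPC alone, and some only with their highest OPC well. One sign held in all sets with a value for 29 of the 40 called genes.

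Kcnk5, the gene of the acid-sensitive leak channel TASK-2, stood at 65.9 CPM in fibroblast wells and at 2.29 in OPC. Only 7 of 64 fibroblast wells reached 10 CPM, the median well had no read, and the highest held 47.5% of the reads. Without that well the level was 34.8 CPM. By set it stood at 97.7, 0 and 43.0 CPM, so the log2 ratio to OPC was positive in sets 1025s_182s (6.63) and 613s (4.98) and -1.97 in set 600s_182s, which held 11 fibroblast wells. Kcns3, a silent subunit that modifies Kv2 channels, stood at 20.3 CPM over the fibroblast class and had no read in OPC. Only 5 of 64 fibroblast wells reached 10 CPM of Kcns3, and 12.1 CPM remained without the highest well. The level over all fibroblast wells was 452-fold a floor of 3 reads over the OPC class. That ratio takes no account of the spread between wells.

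Kcne4 stood at 39.2 CPM in fibroblast wells and 18.8 without the highest well, and 7 of 64 wells reached 10 CPM. Kcnj13, encoding Kir7.1, a channel known in choroid plexus epithelium, stood at 33.9 CPM, but 87.3% of its reads lay in 1 well and 4.58 CPM remained without it. Gigyf2 on the opposite strand covers 49.1% of the exonic bases of Kcnj13. The choroid plexus list summed to a median of 810 CPM in the 10 fibroblast wells with Kcnj13 at 10 CPM or more and to 213 CPM in the other 54. That list was on in none of these 64 wells, and its part in the Kcnj13 level was not tested. Kcne2, a KCNE subunit of the same epithelium, stood at 13.9 CPM and 0.66 without its highest well. Kcnt1 (33.7 CPM, 11.6 without the highest well) encodes a sodium-activated channel.

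Kcnq1 and Kcnmb1 were the genes with the largest ratios of vessel to fibroblast wells, and Kcnk5 and Kcnt1 those with the lowest. Of 20 genes compared, 9 were higher in vessel wells (45.0%; 24.2% of all 11774 genes) and 11 lower (55.0%; 25.3% of all), with a median log2 ratio of -1.88 against 0.03. Nearly all of the 20 passed the minimum in 1 of the classes only and had to differ, so the counts support nothing. The sets with a value gave 1 sign for 16 of the 20. Without the highest well of each gene in each class, 2 higher and 6 lower genes were left. The 2 were Kcnq1 and Kcnmb1. The lower genes included Kcnk5, Kcnt1, Kcne4, Kcns3 and Kcnip3. These values rest on 35 and 64 wells, and set 600s_182s held 3 vessel wells and gave no value of its own.

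Kcnq1 (chr7:143106362-143427042), encoding Kv7.1, stood at 49.5 CPM in vessel wells (45.9 to 53.3) and 0.18 in fibroblast wells. The vessel wells ran from 0 to 555 CPM with a median of 0, 9 of 35 reached 10 CPM, and 38.6 CPM remained without the highest. Its level was 36.5 CPM in the 23 wells with no mural list on and 74.3 CPM in the 12 with one on, but 8.02 CPM in the 5 of these 12 with the smooth muscle list on. Kcnmb1, encoding the beta1 subunit of the BK channel known from smooth muscle, stood at 27.9 CPM in vessel and 0.092 in fibroblast wells. It was 156 CPM in the 5 wells with the smooth muscle list on, all 5 of which reached 10 CPM, and 6.59 CPM in the 23 wells with no mural list on, of which 1 did. So the Kcnmb1 reads followed the smooth muscle markers within the class. Kcnj12 was likewise at 159 CPM in the smooth muscle wells and in none of the 23 wells with no mural list on did it reach 10 CPM, but 86.7% of its vessel reads lay in 1 well and 3.18 CPM remained without it.

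Kcna5 (Kv1.5), a channel known in arterial muscle, stood at 12.7 CPM in vessel wells and had no read in fibroblast wells. Its level was 91.5-fold a floor of 3 reads over the fibroblast class, a ratio that takes no account of the spread between wells. In the smooth muscle wells Kcna5 stood at 47.1 CPM, and in the 23 wells with no mural list on at 9.18 CPM. Without the highest well its vessel level fell under 10 CPM, so it was no longer called (log2 ratio 3.08). Kcnj2 (Kir2.1), known for the inward rectifier current of capillary endothelium, stood at 15.1 CPM and 5.79 without the highest well, and at 17.8 CPM in the wells with no mural list on. Kcnd1 had 99.6% of its vessel reads in 1 well, with 0.073 CPM left without it. Kcnk13 stood at 10.3 CPM in vessel wells, where the microglia list was on in 16 of 35, and its ratio to fibroblast wells changed sign without those 16 wells. Kcnk5 had no read in vessel wells, and its fibroblast level was 310-fold a floor of 3 reads over the vessel class. This ratio also leaves out the spread between fibroblast wells.

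Per kilobase of exon, which allows levels of different genes to be set side by side, the make-up of the pore-forming RNA differed by stage. In OPC the pore-forming genes summed to 329 CPM per kb, of which K2P genes made up 35.1%, Kir 28.0%, Kv1 10.7% and Kv4 10.3%. Kcnk1 (57.4 CPM per kb), Kcnj16 (48.7) and Kcnj10 (35.3) led. In COP the sum was 195 CPM per kb, with Kir at 50.5% and Kv1 at 28.4%, led by Kcnj10 (48.2), Kcna1 (38.8) and Kcnj12 (27.8). Kcna1 made up 19.9% of the COP sum, and for this gene the sets disagreed, as described above. Most COP wells came from set 600s_182s, so the Kv1 share describes mainly that set. In OL the sum was 266 CPM per kb, with Kv1 at 38.7%, K2P at 33.4% and Kir at 23.9%, and 4 genes, Kcnk13 (81.1), Kcna6 (57.5), Kcnj10 (55.7) and Kcna1 (39.0), led. Fibroblast and vessel wells reached 71.7 and 52.6 CPM per kb. Kcnj13 and Kcnk5 made up 37.2% and 27.0% of the former, and Kcnq1 made up 23.0% of the latter. No interval was computed for these shares, so the spread between wells and sets is not shown in them. In fibroblast wells they rest on the single wells named above. In vessel wells Kcnj12 (16.3% of the sum) and Kcnd1 (6.37%) rest mostly on single wells too.

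**Figure D4:**
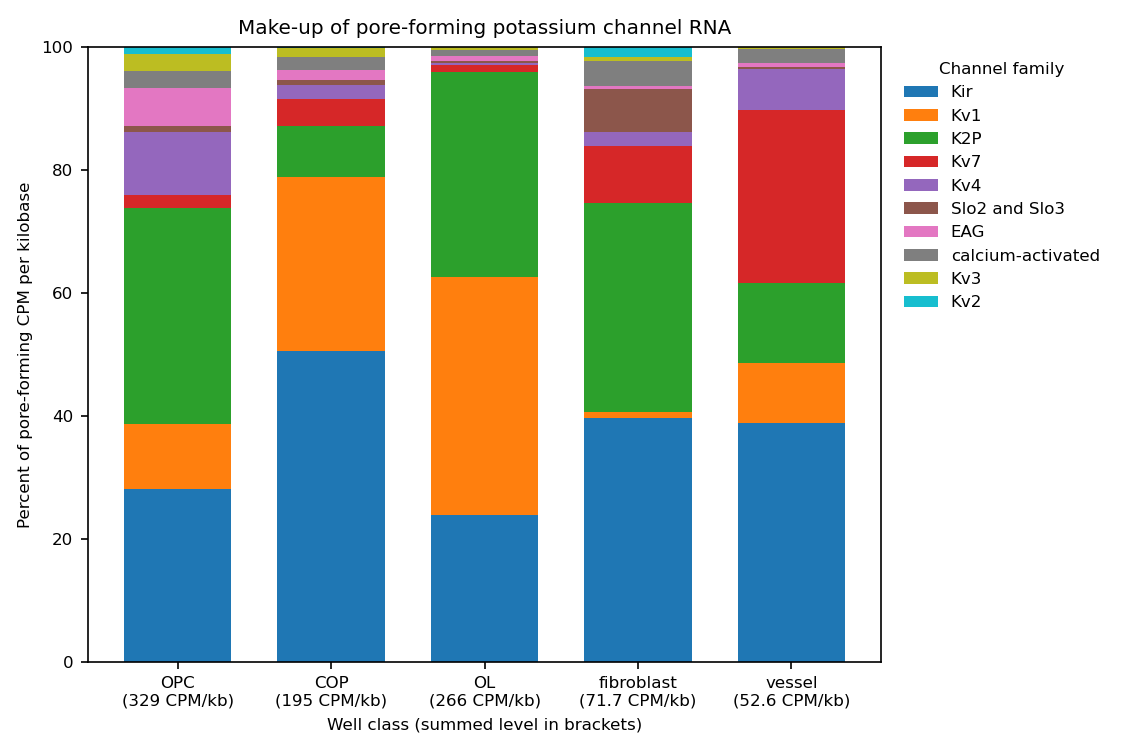
Share of the summed CPM per kilobase of exon of the pore-forming potassium channel genes that each family made up, one stacked bar per class, with the sum in CPM per kb under each bar. K2P and Kir lead in OPC (35.1% and 28.0%), Kir and Kv1 in COP (50.5% and 28.4%), and Kv1 and K2P in OL (38.7% and 33.4%). The Kv1 share in COP is mostly Kcna1, for which the sets disagreed.

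Genes that work with potassium channels were read from a list of 27 partners, which holds Kv4 partners, BK partners, sodium pump subunits, cation-chloride transporters, sulfonylurea receptors, HCN channels and axonal anchoring proteins. Of 17 that could be compared, 1 was higher and 10 lower in COP than in OPC (10.9% and 24.2% of all genes), and 4 were higher and 10 lower in OL (11.3% and 31.1% of all genes). Dpp6, a Kv4 partner that speeds the A-type current, stood at 307 CPM in OPC, 129 in COP and 14.2 in OL, and Dpp10 at 84.0, 12.5 and 5.52. The sodium pump subunit Atp1b2 stood at 962 CPM in OPC, 72.7 in OL and 1290 in fibroblast wells. Slc12a2, the sodium-potassium-chloride cotransporter, stood at 71.8 CPM in OPC, 194 in COP and 437 in OL. Cntn2, an adhesion protein that holds Kv1 channels beside the node of Ranvier, stood at 20.7, 10.8 and 583 CPM, and Hcn2 at 36.6, 10.6 and 103. Fibroblast against OPC gave 3 higher and 12 lower of 20 partners (21.2% and 29.5% of all genes), and vessel against fibroblast gave 5 higher and 5 lower of 12 (24.2% and 25.3% of all genes). Among these Slc12a7 stood at 123 CPM in vessel and 20.3 in fibroblast wells, and Abcc9, a sulfonylurea receptor, at 51.7 and 110 CPM.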

How the data were processed

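The authors deposited raw read counts, 1 column per well and 1 row per gene. Per the submitters' processing notes, the tools were featureCounts (Subread 1.4.6-p5), SAMtools 0.1.18 and TopHat2 2.1.1, and the builds mm10 and GRCm38. Annotation, strand setting and handling of multiply mapped reads were not given in the sources used here, so reads of overlapping genes and close paralogs may be shared.

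The table held 1152 wells. Wells under 50000 reads (295) and, of the 857 others, those with 5% or more of mitochondrial reads (158) were left out. Wells were gated with 13 lists of 5 markers, and a well with several lineages on entered no class, except that a vessel well could carry microglia or macrophage markers. No doublet caller was run, and no well name was shared within a set (0). Counts were summed per class and scaled to CPM, and ratios used 1 CPM added to each side. A call needed a log2 ratio of 1 in size and 10 CPM in the higher class. For shares each well was thinned once to 50000 reads (seed 1). Values within a set needed 5 wells of both classes. Members, marker lists, partner genes and comparisons were chosen with earlier results of these data known. Named genes were the 12 highest by class level and the 3 largest differences per direction and comparison, with further genes named from the families; a few genes are counted but not reported here. Gene positions and exon lengths come from GENCODE vM21 (92 of 92 symbols matched), and promoter windows from RefSeq. Python 3.11.15, numpy 2.4.6, pandas 2.3.3 and scipy 1.17.1 were used, and edgeR 4.0.16 in R 4.3.3 for TMM factors only. Gating and calls were tested on simulated data. Alternatives were other gates, read and CPM minimums, added values, scalings, wells and sets left out.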

Additional observations from a re-analysis of the deposited data

Results flagged for a closer look

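Potassium channel RNA was also present in wells that no comparison used. In the 14 wells with the choroid plexus list on, Kcnj13 stood at 2025 CPM, Kcne2 at 960.5, Kcnk1 at 580.7, Kcnh2 at 102.9 and Kcnh1 at 55.27, each at least 2-fold above its level in every class. Kcnj13 and Kcne2 are known genes of the choroid plexus epithelium.

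The 158 wells with 5% or more of mitochondrial reads also held genes at 2-fold or more above every class. Kcnab2 stood there at 101.2 CPM, Kcnn3 at 66.66, Kcnab1 at 63.68 (95.1% from 1 well), Kcnip2 at 56.45 (91.9% from 1 well), Kcnh3 at 50.64, Kcnc4 at 48.34, Kcng4 at 24.81, Kcne1l at 24.41 and Kcnip4 at 20.42. Other large shares from 1 well were 89.4% for Kcng4 and 78.2% for Kcnh3. Without the highest well Kcnab1 (3.16 CPM), Kcnip2 (4.66) and Kcng4 (2.65) lay below their highest class level (21.7, 12.7 and 9.47 CPM), and Kcnn3 (33.8, against 17.8) was under 2-fold above it. No class was given to these wells.

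The sets of wells gave ratios of opposite sign for several called genes, and values for 3 of them follow. Others included Kcnn2 and Kcnn3 for COP to OPC, and Kcnd1 and Kcnk13 for vessel to fibroblast. The difference between sets was not tested. The log2 ratio of COP to OPC was 3.346 in set 600s_182s and -3.494 in set 613s for Kcna1, and 1.527 and -4.139 for Kcna2. The log2 ratio of fibroblast to OPC was 6.625 in set 1025s_182s and -1.966 in set 600s_182s for Kcnk5.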

How the results depend on the processing

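For the named genes, 54 ratios under 14 settings gave 712 values, of which 706 kept their direction and 6 reversed. Kcnk13 in vessel against fibroblast wells (log2 1.90) became -0.54 with markers counted at 20 CPM, -0.87 without wells carrying microglia markers, -0.42 without set 613s (2.37 without set 1025s_182s) and -0.51 without the highest well of each class. Without set 600s_182s, which left 9 COP wells, the COP to OPC ratio was -3.04 for Kcna1 (up to 3.42 with another set left out) and -1.11 for Kcna2 (up to 1.54). The number of genes reported ran from 37 to 56. With no CPM minimum the genes higher were 8 in COP, 7 in OL and 10 in fibroblast against OPC, and vessel against fibroblast gave 18 higher and 22 lower, since more genes entered. Leaving out the highest well of each gene and class, an alternative chosen after seeing the data, left 2 higher and 6 lower there, and the cause was not tested. No paired analysis was possible because no group is compared by a test and the labels number no replicates. Depth limits the shares: a thinned well holds 1 read of a gene at 20 CPM on average.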
